A study of Mus musculus with 6 samples.

Results

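The genes described here carry lipids inside astroglial cells, package them outside the cell or pump them across the membrane. They are Fabp7, Fabp5 and Fabp3, which bind fatty acids in the cytoplasm, Apoe, Clu and Apod, which are secreted carriers of lipid, Abca1 and Abcg1, which export cholesterol and phospholipid, and Lpl and Lcat, which act on lipoproteins outside the cell. The 10 genes were chosen by name, and every probe that the array assigns to one of these symbols was taken, which gave 13 probes in 22 spots of the 34836 gene symbols and 55681 probes on the array. Of the 10 genes, 7 have 1 probe and 3 have 2.

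Gene expression was measured in 2 cell fractions from the cerebellum of newborn wild-type mice of either sex, with pooled animals and 3 biological replicates per fraction. A+/G+ cells are ACSA-2 positive/GLAST positive and were taken with beads against ACSA-2, an epitope of the sodium pump subunit Atp1b2 on astrocytes, and GLAST is the glutamate transporter Slc1a3 of astroglia. A-/G+ cells are ACSA-2 negative/GLAST positive and were obtained by first depleting cells that carry ACSA-2, L1CAM, PSA-NCAM, CD45 or Ter119 and then selecting for GLAST, a removal of blood cells and neurons that is described for this fraction only. The labels give the strain as CD1, whereas the study's methods name C57BL/6 for its wild-type mice and CD1 only for adult hosts of grafts. Each sample held 50000 cells. The labels give the age as postnatal days 1 to 3, whereas the study's methods name the day of birth and the day after it. No transgene or treatment is named for the array samples. For cell sorting in general the methods name wild-type and beta-actin-GFP mice, the latter as donors of grafts.

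Astroglia supply much of the lipid that other brain cells use. Cholesterol and phospholipid leave the cell through ABC transporters and are loaded onto apolipoproteins, chiefly ApoE in the brain, to form particles similar to high-density lipoprotein. Lcat esterifies the cholesterol of these particles, lipoprotein receptors on other cells take them up, and fatty acid binding proteins shuttle fatty acids within the cell, with Fabp7 (brain lipid binding protein) a long-used mark of radial glia and of their cerebellar relatives.

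The array reads each gene through probes of 60 bases. The probe of Apoe is shown because the gene with the smallest adjusted p of the 10 was read by this 1 sequence in 10 spots, and the 3′ end of the brighter Apod probe is shown because the other Apod probe did not rise above background. In the latter the capitals mark the polyadenylation hexamer AATAAA, which 5 of the 13 probes hold, compared with 10.1% of all 55681 probes. The Fabp3 probes among these overlap and hold the same hexamer.
Apoe, whole probe: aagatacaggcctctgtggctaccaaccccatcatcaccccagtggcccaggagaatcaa
Apod, last 30 bases of the brighter probe: gctagcccaatAATAAAcattttgctgatc

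Each fraction had a slide and a scan of its own, so that neither can be told apart from the fraction. The 75th percentile of the raw intensity was 332 to 334 on the A+/G+ arrays and 56.6, 113 and 251 on A-/G+ replicates 1, 2 and 3, and quantile normalization put the 6 arrays on 1 scale. A probe passed when its Benjamini-Hochberg adjusted p from limma was at most 0.05, and was called when, in addition, the fractions' medians lay 4-fold apart or more. With quantile normalization 2589 probes passed higher in A+/G+ (4.65% of all probes) and 2583 higher in A-/G+ (4.64%), whereas centring the arrays on their 75th percentiles gave 2369 and 17203 and moved the median difference of all probes from -0.04 to -1.02 on the log2 scale. All differences below are A+/G+ minus A-/G+ in normalized log2 signal.

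Among the 10 genes, the secreted carriers Apoe and Apod, the exporter Abca1 and the fatty acid carrier Fabp5 passed the test with higher signal in A+/G+, none passed in the other direction, and 6 did not pass. The background of passing probes was 4.65% upward, and among the 13689 genes whose brightest probe was well above background (the scanner software's detection call) on all 6 arrays, as it was for all 10 genes here, 7.69% passed upward in A+/G+ and 10.7% downward. Apod alone was called, against 1.53% of all probes called higher in A+/G+ and 0.399% called higher in A-/G+. For 6 of the 10 genes every A+/G+ array lay above every A-/G+ array, as it did for 20.2% of the 13689 genes. The median difference was 0.98 over the 10 genes and -0.09 over the 13689 genes. In these bulk samples fewer cells of a type and less RNA per cell cannot be told apart.

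**Figure D1:**
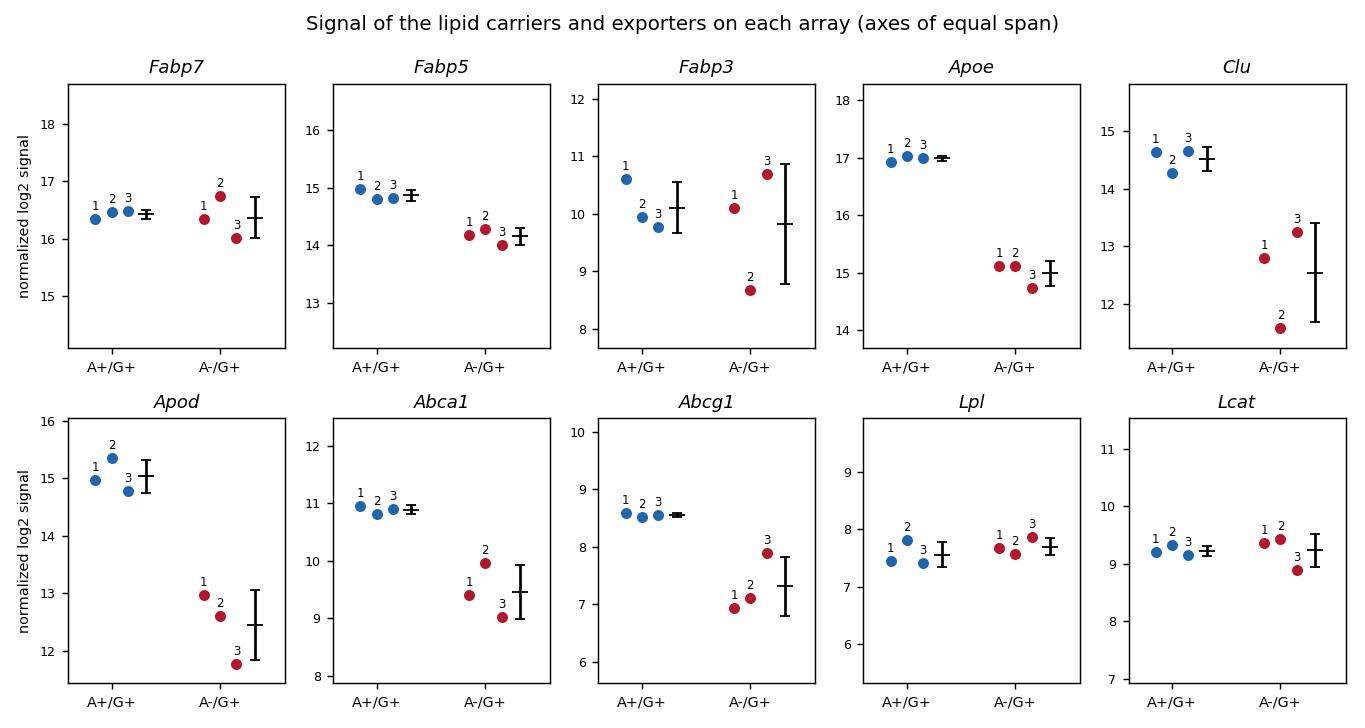
Normalized log2 signal (y axis) of the 10 genes on the 3 A+/G+ arrays (blue) and the 3 A-/G+ arrays (red), with the replicate number beside each point and the mean with its SD as a black bar; all panels span the same range of log2 units. Apoe, Apod, Clu, Abca1, Abcg1 and Fabp5 do not overlap between the fractions, and the A-/G+ points scatter more for most genes.

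The intracellular fatty acid carriers did not behave alike. Fabp7, whose probe lies on chromosome 10 of mm9 from 57508039 to 57508098, gave 16.34, 16.46 and 16.48 in A+/G+ replicates 1, 2 and 3 and 16.34, 16.75 and 16.02 in A-/G+. The fractions overlapped, with both the highest and the lowest array in A-/G+. Its means of 16.43 ± 0.08 and 16.37 ± 0.36 (SD, n = 3) differed by 0.06, with a 95% interval from -0.46 to 0.57 (adjusted p = 0.884, limma with Benjamini-Hochberg adjustment). After the shift by the 75th percentile the difference of Fabp7 was -0.63 (adjusted p = 0.148), so that no direction is given for it.

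Fabp5, the epidermal type carrier that is also made by glia and neural progenitors, was read by a probe on chromosome 3 from 10016185 to 10016244. Its log2 signal was 14.98, 14.81 and 14.83 in A+/G+ and 14.19, 14.29 and 14.00 in A-/G+, without overlap. The difference of 0.72 (standard error 0.0999, 95% interval 0.46 to 0.97, medians 1.56-fold apart) passed with an adjusted p of 0.0207 in limma with Benjamini-Hochberg adjustment. It did not pass after the shift by the 75th percentile (0.43, adjusted p = 0.134), nor in limma without A+/G+ replicate 1, 2 or 3 (adjusted p = 0.0767, 0.0818 and 0.0853) or A-/G+ replicate 1 (0.0522).

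Fabp3, the heart type carrier, was the most variable of the 10 genes among A-/G+ arrays. Its brighter probe, on chromosome 4 from 129992652 to 129992711, gave 10.61, 9.95 and 9.77 in A+/G+ and 10.10, 8.67 and 10.70 in A-/G+, where replicate 2 was the lowest and replicate 3 the highest of all 6 arrays. The means of 10.11 ± 0.44 and 9.82 ± 1.04 (SD, n = 3) differed by 0.29 with a 95% interval from -1.23 to 1.81 (adjusted p = 0.784, limma with Benjamini-Hochberg adjustment), the medians differed in the other direction by -0.15, and without A-/G+ replicate 2 the difference of means was -0.29. The second probe shares 51 bases with the first and is not an independent reading, and it differed by 0.27 (adjusted p = 0.774).

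Of the secreted carriers, Apoe had the smallest adjusted p. ApoE is the main apolipoprotein of the brain, and its probe lies on the minus strand of chromosome 7 from 20281732 to 20281791. Its signal was 16.93, 17.03 and 16.99 in A+/G+ and 15.12, 15.11 and 14.74 in A-/G+, so that each fraction was tight and the nearest arrays of the 2 fractions lay far apart. The means of 16.99 ± 0.05 and 14.99 ± 0.22 (SD, n = 3) differed by 2.00 (standard error 0.126, 95% interval 1.67 to 2.32, adjusted p = 0.00425, limma with Benjamini-Hochberg adjustment). Its medians lay 3.68-fold apart, just under the 4-fold limit. Apoe passed without any 1 of the 6 arrays, with a difference between 1.87 and 2.06, and was called without A-/G+ replicate 1 (medians 4.20-fold apart) or replicate 2 (4.18-fold). The shift by the 75th percentile lowered the difference to 1.41 (adjusted p = 0.0279).

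The 10 Apoe spots lie at separate places on each array and measure the technical error of 1 probe. Their SD on an array was 0.25, 0.21 and 0.22 in A+/G+ and 0.21, 0.04 and 0.05 in A-/G+, compared with the difference of 2.00 between the fractions. The scanner software marked 1 outlier spot on A-/G+ replicate 1 and 1 on replicate 3, which were left out, and 0 spots were saturated.

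**Figure D2:**
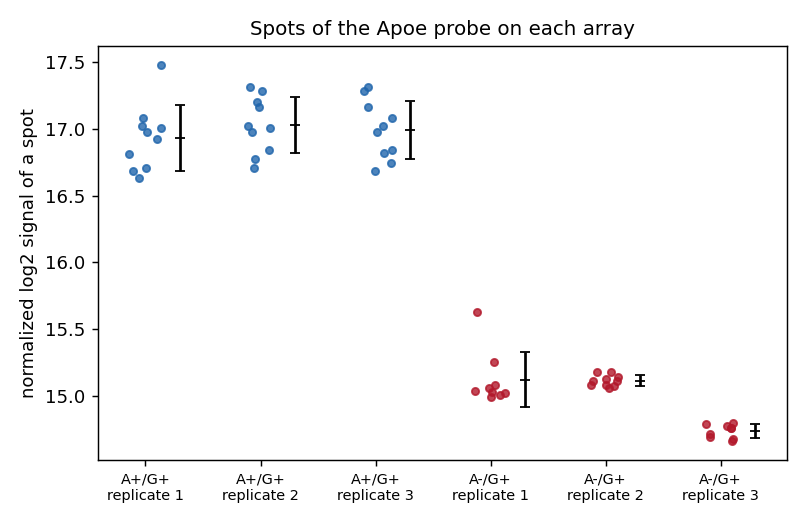
Normalized log2 signal (y axis) of each spot of the Apoe probe on the 6 arrays (x axis; blue A+/G+, red A-/G+), with the mean and SD over the spots of an array in black. The clouds of the 2 fractions are separate, with A+/G+ array means between 16.93 and 17.03 and A-/G+ array means between 14.74 and 15.12.

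Apod, a lipocalin that binds arachidonic acid and sterols rather than a true apolipoprotein by sequence, had the largest difference of the 10 genes. The brighter probe, on the minus strand of chromosome 16 from 31297206 to 31297265, gave 14.96, 15.35 and 14.77 in A+/G+ and 12.97, 12.60 and 11.77 in A-/G+. The fractions did not overlap, and A-/G+ replicate 3 was the lowest array. Its means of 15.03 ± 0.29 and 12.45 ± 0.61 (SD, n = 3) differed by 2.58 (standard error 0.356, 95% interval 1.66 to 3.50), the medians lay 5.15-fold apart, and limma gave an adjusted p of 0.0201 after Benjamini-Hochberg adjustment. In limma the gene no longer passed without A+/G+ replicate 1, 2 or 3 (adjusted p = 0.079, 0.0855 and 0.0768) or A-/G+ replicate 2 (0.0579), with differences between 2.24 and 2.84 over the 6 fits. The second Apod probe, from 31296299 to 31296358, starts 907 bases away and stayed near background on all 6 arrays, and its difference was -0.05. The mean of both probes differed by 1.27 with medians 2.17-fold apart, so that the call of Apod rests on the brighter probe.

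Clu encodes clusterin or apolipoprotein J, a secreted chaperone found on brain lipoproteins. From its probe on chromosome 14 from 66600325 to 66600382, the signal was 14.64, 14.28 and 14.65 in A+/G+ and 12.79, 11.58 and 13.25 in A-/G+. The fractions did not overlap, but the A-/G+ arrays were spread widely around replicate 2, the lowest. The means of 14.52 ± 0.21 and 12.54 ± 0.86 (SD, n = 3) differed by 1.98, close to the difference of Apoe, with a 95% interval from 0.79 to 3.18 and an adjusted p of 0.0683 in limma after Benjamini-Hochberg adjustment, which is not a pass. Clu passed without A-/G+ replicate 2 (1.50, adjusted p = 0.0445) or replicate 3 (2.34, 0.039, limma), and after the 75th percentile shift (1.78, 0.0489).

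Of the cholesterol exporters, Abca1 passed and Abcg1 did not. Abca1, which loads cholesterol and phospholipid onto lipid-poor apolipoproteins, was read on the minus strand of chromosome 4 from 53043944 to 53044003 and gave 10.95, 10.82 and 10.90 in A+/G+ against 9.41, 9.96 and 9.02 in A-/G+. Its means of 10.89 ± 0.07 and 9.46 ± 0.47 (SD, n = 3) differed by 1.43 (standard error 0.252, 95% interval 0.78 to 2.08, medians 2.82-fold apart), with an adjusted p of 0.0352 in limma with Benjamini-Hochberg adjustment. The groups did not overlap, and nearly all of the spread was in A-/G+. Abca1 did not pass in limma without A+/G+ replicate 1, 2 or 3 (adjusted p = 0.125, 0.125 and 0.132) or A-/G+ replicate 1 (0.09), nor in the methods' t-test (0.0788).

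Abcg1, which moves cholesterol onto particles that already hold lipid, was read on chromosome 17 from 31252580 to 31252639. It gave 8.58, 8.51 and 8.55 in A+/G+ and 6.94, 7.10 and 7.89 in A-/G+, without overlap and with A-/G+ replicate 3 nearest to the other fraction. The difference of 1.24 (standard error 0.269, 95% interval 0.54 to 1.93, medians 2.72-fold apart) did not pass, with an adjusted p of 0.0581 in limma with Benjamini-Hochberg adjustment. Without A-/G+ replicate 3 the difference was 1.53 and passed (adjusted p = 0.00538, limma).

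Abca1 and Abcg1 are textbook targets of the oxysterol-sensing liver X receptors, whose known element in the Abca1 promoter is a repeat of a short site. The RefSeq promoter table (GRCm38.p6, 250 bases before to 50 after each start) matched 6 of the 10 genes, namely Abca1, Fabp3, Apoe, Lcat, Fabp7 and Apod, with 8 promoters. The 250 bases before the Abca1 start are shown because this gene passed and its promoter was the only 1 of the 8 with GGTTA and GGTCA separated by any 5 bases, the letters of that element, searched on both strands. Since the search used the letters of the known Abca1 element, a match in Abca1 was fixed in advance. They lie at chr4:53159896-53160145 on the minus strand of GRCm38.p6, written 5′ to 3′ with the motif matches in capitals.
Abca1, 250 bases before the start: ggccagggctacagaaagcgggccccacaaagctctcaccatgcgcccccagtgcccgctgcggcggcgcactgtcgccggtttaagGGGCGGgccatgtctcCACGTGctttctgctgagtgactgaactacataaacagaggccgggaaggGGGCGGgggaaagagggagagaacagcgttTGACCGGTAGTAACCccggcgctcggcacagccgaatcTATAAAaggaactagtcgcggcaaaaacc
From the 5′ end the capitals mark GGGCGG at bases 163 to 158 before the start, CACGTG (which reads the same on both strands) at 147 to 142, GGGCGG at 97 to 92, GGTTA and GGTCA on the opposite strand, with the 5 bases between them, at 67 to 53, and TATAAA at 29 to 24, with no overlap between them. Of 32851 mouse promoters in the table, 16 (0.0487%) hold GGTTA and GGTCA at that distance, 7.15% hold CACGTG, 13.6% hold TATAAA and 35.7% hold GGGCGG. The Apoe promoter also held TATAAA. These matches are a description of the letters and say nothing of binding in these cells.

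The enzymes that act on lipoproteins outside the cell showed no difference past the test. Lpl, lipoprotein lipase, splits the triglycerides of circulating particles, and its brighter probe on chromosome 8 from 71430267 to 71430326 gave 7.45, 7.81 and 7.41 in A+/G+ and 7.67, 7.57 and 7.86 in A-/G+. The fractions overlapped, and the difference was -0.14 with a 95% interval from -0.52 to 0.23 (adjusted p = 0.593, limma with Benjamini-Hochberg adjustment). The second Lpl probe, from 71425050 to 71425109, was detected on 3 A+/G+ arrays and 1 A-/G+ array and differed by -0.35 (adjusted p = 0.58). Lcat, on the minus strand of chromosome 8 from 108463857 to 108463916, gave 9.20, 9.32 and 9.15 in A+/G+ and 9.36, 9.42 and 8.89 in A-/G+. Its means of 9.22 ± 0.09 and 9.23 ± 0.29 (SD, n = 3) were nearly equal, with a 95% interval of the difference from -0.42 to 0.42 (adjusted p = 0.997, limma), which leaves room for a change of that size in either direction.

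**Figure D3:**
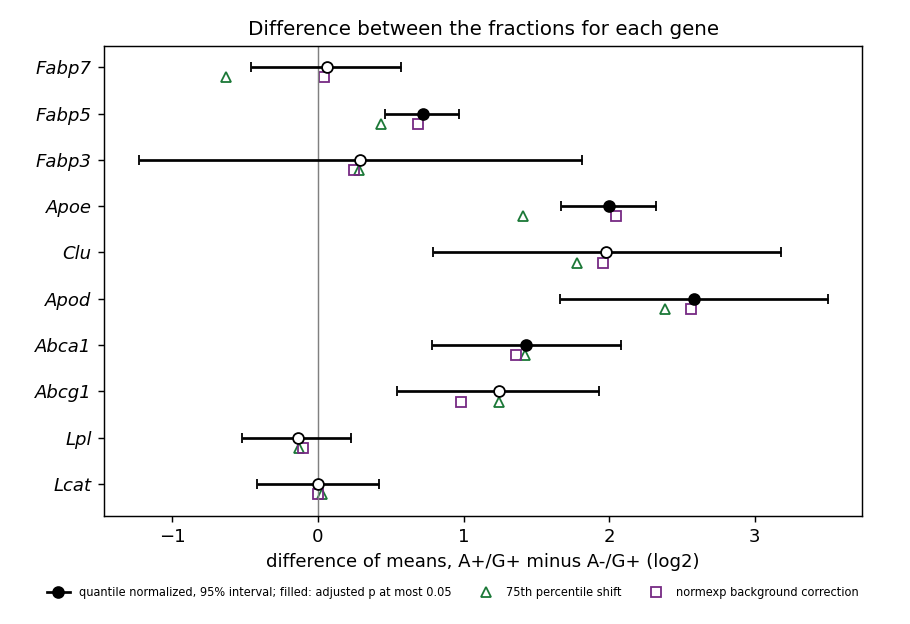
Difference of means on the log2 scale (x axis, A+/G+ minus A-/G+, n = 3 arrays each) for the 10 genes (y axis), as a circle with its 95% interval after quantile normalization, filled where the adjusted p was at most 0.05, with the value after the 75th percentile shift as a triangle and after normexp background correction as a square. The secreted carriers Apoe, Clu and Apod and the exporters Abca1 and Abcg1 stay on the right under all 3 settings, whereas Fabp7 moves from 0.06 to -0.63 under the shift.

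The spread among replicates was itself unequal. The SD was larger in A-/G+ for 9 of the 10 genes, with a median SD of 0.42 there and 0.09 in A+/G+. Over the 13689 genes well above background on all arrays it was larger in A-/G+ for 83.8%, with medians of 0.23 there and 0.10 in A+/G+. Lpl was the exception among the 10 genes.

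Because the arrays differed in overall brightness, each gene was also compared with Fabp7 on the same array, as the log2 ratio of the raw intensities, which uses no scaling between arrays. Fabp7 was chosen for this after the values were seen. Relative to Fabp7, Apoe was at 0.53, 0.47 and 0.47 in A+/G+ and at -1.73, -1.70 and -1.23 in A-/G+, a difference of 2.04. Apod differed by 3.02, Clu by 2.42, Abca1 by 2.05, Abcg1 by 1.87 and Fabp5 by 1.06, and for each of these every A+/G+ ratio was above every A-/G+ ratio (exact permutation test, two-sided, p = 0.1 for each of these 6 genes before adjustment, the smallest that 3 arrays against 3 can give). Lcat also did not overlap (0.66), whereas Fabp3 (0.91) and Lpl (0.50) overlapped. Of the 9 ratios, 7 were thus higher on all A+/G+ arrays, a count that includes Lcat, whose normalized means were nearly equal. The same count was not made over all genes, so that no background share stands beside it. Fabp7 itself differed by -0.63 after the 75th percentile shift. A gene that followed the 75th percentile would therefore have a higher mean ratio to Fabp7 in A+/G+. Among the A-/G+ arrays the 75th percentile of intensity rose over the replicates (56.6, 113 and 251). The ratios of Fabp5 (-2.77, -2.60 and -1.90) and Lcat (-7.73, -7.59 and -7.22) rose in the same order. So did the ratios of Apoe, given above, and Abcg1 (-10.06, -9.95 and -8.22). The ratios of Fabp3, Clu, Apod, Abca1 and Lpl did not follow this order throughout. The part of array brightness in the ratios was not tested.

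The wider lipid transport pathway was described with 119 other genes in 9 lists. Of these, 28 passed upward in A+/G+, 4 passed downward and 87 did not pass. Of all probes 4.65% passed upward and 4.64% downward. Of the 13689 genes well above background on all 6 arrays, 7.69% passed upward and 10.7% downward. The median difference was 0.26, compared with -0.04 over all probes and 0.98 over the 10 genes. Of the 119, 61 were detected on all 6 arrays, 27 on none, and 8 on every A+/G+ array but no A-/G+ array. The lowest detected log2 signal was 3.52, 3.59 and 3.61 on A+/G+ replicates 1, 2 and 3. It was 5.72, 4.95 and 4.03 on A-/G+ replicates 1, 2 and 3, so that a dim gene was more easily detected in A+/G+. The part of this in the 28 was not tested. All 32 genes that passed kept their direction after the 75th percentile shift, normexp background correction and in the authors' log2 table, with 24, 31 and 31 of them still passing. Where no A-/G+ array detected a gene (well above background), only a lower limit of its fold is given, from the lowest detected signal of those arrays. Dim genes also had smaller differences with normexp background correction, which adds an offset of 50 to all signals: 0.90 for Abca8b, 0.83 for Acsl3 and 0.93 for Ch25h, on the log2 scale.

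Few genes of the families nearest to the 10 were detected. None of the 7 other fatty acid binding proteins was well above background on any array, so that Fabp7, Fabp5 and Fabp3 were the detected members of that family. Of 12 other apolipoproteins 7 were above background on no array, and 2 passed. Apoc1, which sits beside Apoe in the genome and rides on lipoproteins, gave 10.03, 9.60 and 10.09 in A+/G+ and 7.99, 7.94 and 8.75 in A-/G+ (difference 1.68, medians 4.12-fold apart, adjusted p = 0.0306, limma with Benjamini-Hochberg adjustment), without overlap. Apof also passed (adjusted p = 0.00419) but was well above background in A+/G+ alone and so dim that no limit of its fold can be given.

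Of 16 other ABCA and ABCG transporters, 3 passed, all higher in A+/G+. Abca8b was at least 2.64-fold higher (adjusted p = 0.00681, limma), and Abca8a passed as well (adjusted p = 0.00484) at a level too dim for a limit. Abcg2, the drug and sterol pump known from the blood-brain barrier, differed by 0.77 (adjusted p = 0.0224). Abcg4, the close relative of Abcg1, gave 10.36 ± 0.23 and 10.10 ± 0.15 (SD, n = 3) and did not pass (adjusted p = 0.386).

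Among 14 lipoprotein receptors, 4 passed, all higher in A+/G+. Lrp1, the large scavenging receptor that takes up ApoE particles, gave 12.30, 12.40 and 12.23 in A+/G+ and 11.47, 11.47 and 11.42 in A-/G+, a difference of 0.86 (adjusted p = 0.00585, limma with Benjamini-Hochberg adjustment). Lrp8, which binds ApoE and reelin, differed by 0.77 (adjusted p = 0.0233), and Lsr by 1.52 (0.0277). Cd36, a fatty acid and lipoprotein scavenger receptor, passed (0.0113) but was undetected on the A-/G+ arrays and has no usable limit. Vldlr, another receptor of ApoE, did not pass, at a difference of -0.54 (adjusted p = 0.13).

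The 13 lipases and remodelling proteins had 1 gene passing each way. Angptl4, a secreted inhibitor of lipoprotein lipase, differed by 1.19 (adjusted p = 0.0138, limma), and Gpihbp1, the anchor of lipoprotein lipase on endothelium, fell by 1.43 (0.0122), a difference that was -0.55 with normexp background correction. Of 10 lipid-sensing nuclear receptors, 3 passed. Nr1h3, liver X receptor alpha, gave 8.06, 8.42 and 8.14 in A+/G+ and 7.04, 7.20 and 7.39 in A-/G+ (difference 0.99, adjusted p = 0.022), and Rxrg, a retinoid X receptor of the type that pairs with it, passed in the other direction (-1.35, 0.049). Nr1h2, liver X receptor beta, was lower by -0.39 without passing (0.0526). Rxra differed by -1.92 on its brighter probe without passing (0.0508), while another Rxra probe differed by 0.61 (0.631). Rora differed by 1.77 (0.032) on its brighter probe, while another Rora probe differed by -0.64 without passing (0.179).

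Fatty acid uptake and activation had 6 of 15 genes passing, all higher in A+/G+. Mfsd2a, the carrier of lysophosphatidylcholine that brings docosahexaenoic acid into the brain, gave 12.09, 12.05 and 12.20 in A+/G+ and 9.79, 9.86 and 10.67 in A-/G+ (difference 2.01, medians 4.70-fold apart, adjusted p = 0.0179, limma). The acyl-CoA synthetases Acsl6 (1.68, 0.0186) and Acsbg1 (0.82, 0.0204) and the transporter Slc27a1 (0.54, 0.0371) also passed, as did Acsl3 at no less than 2.47-fold (0.00504) and Slc27a2 at no less than 1.02-fold (0.00612), for which both limits are against undetected A-/G+ arrays. Dbi, the acyl-CoA binding protein, gave 16.32 ± 0.12 and 16.18 ± 0.17 (SD, n = 3) and did not pass (0.551).

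Of 19 genes of intracellular sterol transport and storage, 6 passed upward in A+/G+ and 2 downward. Nceh1, a cholesteryl ester hydrolase (difference 1.09, adjusted p = 0.00699, limma), Lipa, the lysosomal acid lipase (0.86, 0.0266), and the oxysterol binding protein relatives Osbpl1a (0.64, 0.0266) and Osbpl8 (0.69, 0.04) were among the former. Other Osbpl1a probes differed by 0.61 (0.133) and -0.46 (0.288) without passing in limma. Ch25h, which makes an oxysterol, was at least 2.37-fold higher (0.0208) and was the only gene of this list that was called, and Cyp27a1 passed (0.0412) without being well above background on any array. The sterol carriers Stard4 (-0.72, 0.0211) and Stard3 (-0.58, 0.037) passed in the other direction.

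Of 13 lipid droplet proteins 4 passed, all higher in A+/G+, and Mgll had the largest difference among those of the 119 genes that were well above background on all 6 arrays. Mgll, monoacylglycerol lipase, which also breaks down the endocannabinoid 2-arachidonoylglycerol, gave 12.07, 11.88 and 11.95 in A+/G+ and 8.33, 7.34 and 8.53 in A-/G+ (difference 3.90, medians 12.3-fold apart, adjusted p = 0.00772, limma with Benjamini-Hochberg adjustment). Cidea, a droplet fusion protein of brown fat, gave 9.86, 9.81 and 9.58 against 5.63, 6.94 and 6.33 (3.45, 11.1-fold, 0.0107), and Plin5, a perilipin of oxidative tissues, gave 7.15, 7.91 and 8.57 against 4.44, 5.53 and 4.65 (3.00, 9.59-fold, 0.0281), both with 2 of 3 A-/G+ arrays well above background. With normexp background correction both still passed at smaller differences, of 2.55 for Cidea and 1.64 for Plin5, while Mgll was at 3.51. Plin1 passed (0.0038) but rose above background on 1 A+/G+ array only. Plin2, the perilipin found on droplets of most cells, gave 10.43 ± 0.06 and 10.26 ± 0.14 (SD, n = 3) and did not pass (0.379).

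**Figure D4:**
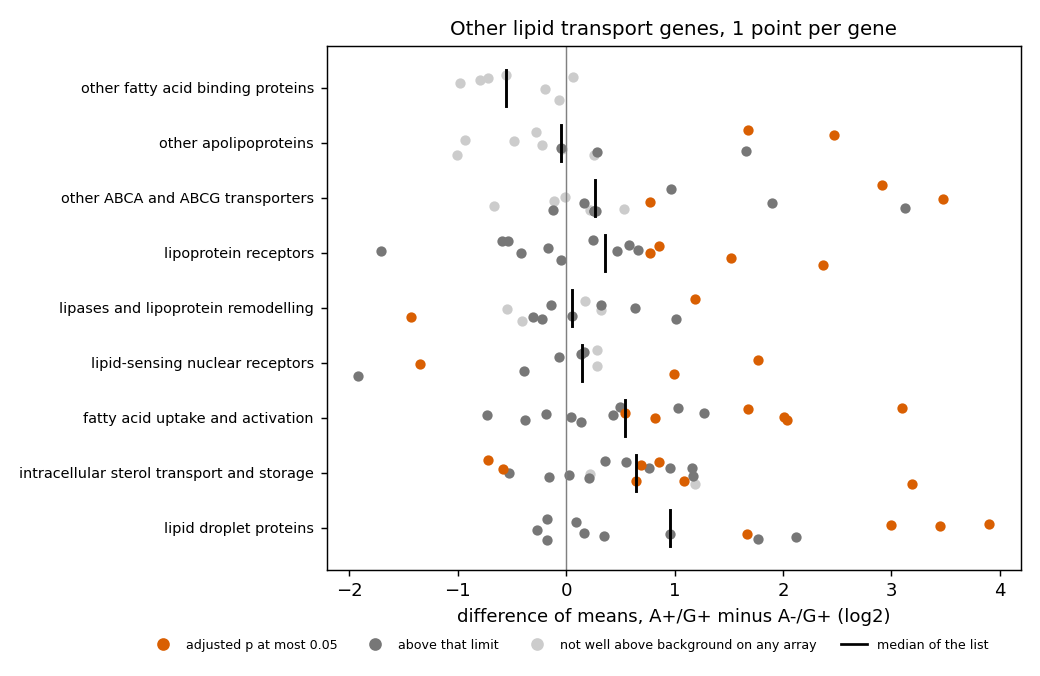
Difference of means on the log2 scale (x axis, A+/G+ minus A-/G+) for the 119 genes of the 9 lists (y axis), 1 point per gene and a black bar for the median of the list; orange points passed, dark grey points did not, and light grey points were not well above background on any array (Cyp27a1, which passed, is among them). The medians run from -0.56 for the undetected fatty acid binding proteins to 0.96 for the lipid droplet proteins, where Mgll, Cidea and Plin5 lie at 3.00 or more.

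Markers of other cell types moved with the fractions. The 9 markers of meningeal fibroblasts all read higher in A+/G+ (4 passed). Their summed normalized signal was 88000 to 107000 on the A+/G+ arrays and 14200 to 43000 on the A-/G+ arrays. Their median difference was 2.12, beside 2.00 for Apoe, 1.98 for Clu, 2.58 for Apod, 1.43 for Abca1 and -0.14 for Lpl. All 9 pericyte and smooth muscle markers read higher too (4 passed, 17600 to 19800 against 5660 to 6920), as did all 10 endothelial markers (1 passed, 8540 to 12900 against 1900 to 8760), and of 8 oligodendrocyte lineage markers 6 read higher and 3 passed, with 1 passing lower (13700 to 16400 against 2300 to 4400). Of 7 ependymal markers 6 read higher and 4 passed (5280 to 7530 against 1670 to 5870), with a median difference of 3.27. Mcidas, the 1 that read lower (-0.38), was the brightest of them on each A-/G+ array (12.43, 10.49 and 10.28) and weighs most in those sums. Apoe, Apod, Clu, Abca1 and Lpl are known to be made by several of these cell types, and the part of these cells in the differences above was not tested.

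In the other lists few or none of the genes passed. The 12 microglia and macrophage markers summed to 679 to 1490 in A+/G+ and 1310 to 1510 in A-/G+, with 4 reading higher in A+/G+, 8 lower and 1 passing (higher). The 7 choroid plexus markers (24900 to 39200 against 23600 to 57000), the 8 neuronal markers (10300 to 18300 against 5860 to 11900) and the 5 red blood cell markers (8810 to 16100 against 2550 to 7790) had 0 genes passing in limma at these limits. Even so, 6 neuronal markers read higher in A+/G+ and 2 lower (median difference 0.91). Of the red blood cell markers 4 read higher and 1 lower (median 1.52), and of the choroid plexus markers 2 higher and 5 lower (median -0.42). Of all 93 markers, 2 red blood cell markers were well above background on no array.

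Astroglial markers were present in both fractions. All 10 astroglial markers were detected on each of the 6 arrays, with sums of 116000 to 128000 in A+/G+ and 85000 to 130000 in A-/G+, with 4 genes passing upward in A+/G+ and 1 downward. Slc1a3, the transporter that GLAST antibodies bind, read lower in A+/G+ (13.39 against 14.59) without passing (adjusted p = 0.0733, limma). The 8 markers of Bergmann glia, the radial astroglia of the cerebellar cortex, summed to 4470 to 5380 in A+/G+ and 17900 to 27100 in A-/G+, with 7 passing higher in A-/G+ and A2m passing higher in A+/G+. Fabp7, a gene that Bergmann glia also make, differed by 0.06 as given above.

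**Figure D5:**
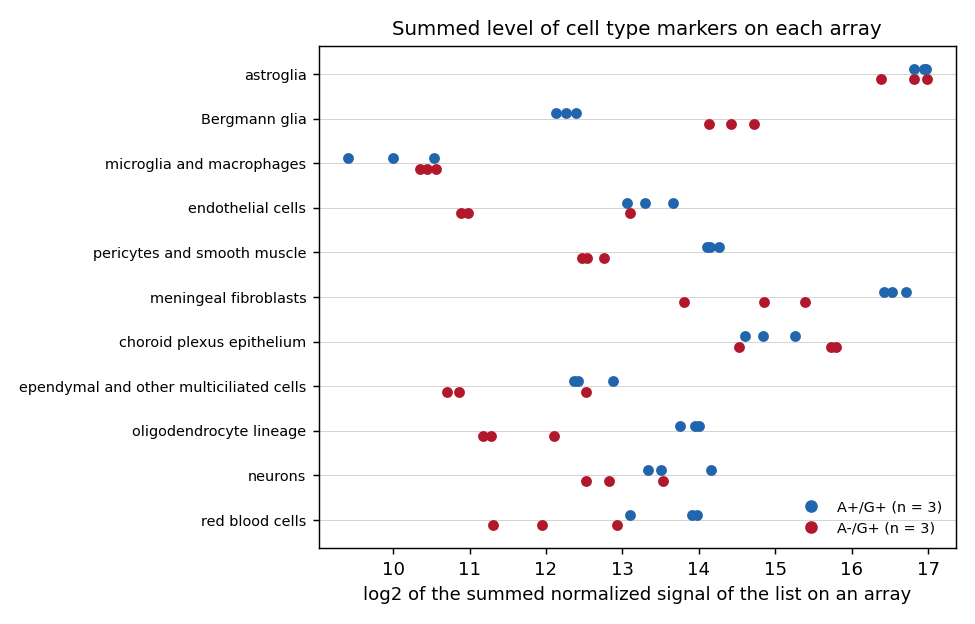
Log2 of the summed normalized signal of each marker list (x axis) on the 3 A+/G+ arrays (blue) and the 3 A-/G+ arrays (red), 1 row per cell type. Meningeal, pericyte and oligodendrocyte lineage lists are higher on all A+/G+ arrays and Bergmann glia markers on all A-/G+ arrays, whereas astroglial, microglial and choroid plexus sums overlap.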

How the data were processed

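RNA of 6 samples of magnetically sorted cells was amplified, labelled with Cy3 and hybridized by the authors to Agilent mouse arrays with 1 colour (Feature Extraction 10.7.3.1, per the labels). The authors deposited the scanner's background-corrected intensity of every spot, together with a log2 table that they had quantile normalized, which has 38 empty cells and was an alternative here. Of 62976 spots per array, 59305 hold gene probes. Spots marked as outliers were left out, log2 intensities were quantile normalized, the spots of a probe were averaged, and limma 3.58.1 in R 4.3.3 compared the fractions over all 55681 probes with Benjamini-Hochberg adjustment, the limits being those of the study's methods. Alternatives were the methods' t-test, a 75th percentile shift, normexp with an offset of 50, the authors' table, dim probes left out, trend and robust variance, outlier spots kept, averaged probes, a replicate block and each array left out. A gene is represented by its brightest probe.

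The genes and lists were chosen with earlier results of these data known. Named are the 10 genes with all probes, per list up to 4 detected genes of smallest adjusted p and every called gene, and a few relatives chosen after their values were seen (Abcg4, Vldlr, Nr1h2, Dbi, Plin2, Plin1, Cyp27a1, Slc1a3, A2m). Gene names and mm9 positions are the array's, and no mm9 gene model was used, so exons and UTRs are not given. Of 34836 symbols, 20980 were in the RefSeq table, which includes all 10. Marker lists held 93 genes on the array and 1 that was not. The replicates are labelled biological but come from pooled animals.

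On simulated data with 200 of 55660 probes changed, limma recovered 20.5%, 45.5% and 67.5% of changes of 1, 2 and 3 on the log2 scale. The simulation changed far fewer probes than passed in the data (2589 and 2583) and gave both fractions the same SD for a probe. These rates therefore do not measure the power of the comparison made here. The 6 arrays limit the precision. A slide block could not be fitted.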

Additional observations from a re-analysis of the deposited data

How the results depend on the processing

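Of the 4 genes that passed, the methods' t-test kept 2, losing Apod (adjusted p = 0.0532) and Abca1 (0.0788), and called 0, and a 2-fold limit on the medians called 3, averaging a gene's probes 0. Clu and Abcg1 passed in limma after the 75th percentile shift (both adjusted p = 0.0489), with normexp (0.0252 and 0.0175), with dim probes left out (0.0243 and 0.0224) and with trend and robust variance (0.0437 and 0.0438), and Abcg1 also with probes averaged (0.0494). The difference changed sign for Fabp7 under the shift (-0.63) and for Lcat under the shift (0.03), in the authors' table (0.03) and with outlier spots kept (0). The cause was not tested. Of the 119 pathway genes the t-test passed 14 higher and 2 lower in A+/G+, and the shift passed 12 lower. Leaving out each array gave 1 to 6 genes passing of the 10, 0 to 2 called, 10 to 32 pathway genes passing higher and 0 to 18 lower, with differences from -0.12 to 0.24 for Fabp7, -0.29 to 0.73 for Fabp3 and -0.17 to 0.10 for Lcat. With 1 array left out, the extremes came without an A+/G+ array (1 gene passing) and without A-/G+ replicate 3 (6 genes, 18 pathway genes lower). Over all 55681 probes these fits passed 816 to 4437 higher in A+/G+ and 404 to 4578 lower, beside 2589 and 2583 with all arrays. The t-test passed 1351 of all probes higher and 1197 lower, so that the counts above moved together with those of the whole array.

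The correlations of same-numbered deviations over 17944 probes were 0.20, 0.11 and -0.11, and those of different-numbered deviations lay between -0.24 and 0.17. With 3 arrays per fraction these values cannot settle whether equal replicate numbers pair the samples. With the replicate number as a block, 0 of the 10 genes, 0 of the 119 and 0 of 55681 probes passed in limma (lowest adjusted p of the 10 genes 0.0644, Apoe), while 6 of the 10 had an unadjusted p under 0.05, as without the block.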
